A study of Caenorhabditis elegans with 2 samples.

Results

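The epithelial junction genes hmr-1, hmp-2, hmp-1, jac-1, ajm-1, dlg-1 and let-413 were followed through peak lists for the transcription factor LIN-32 in embryos of the nematode Caenorhabditis elegans. They are 7 of 19973 protein-coding genes in the annotation, and they were named for this description with earlier results from the same lists in view, namely strong peaks beside hmp-2 and ajm-1. The peaks taken for each gene were those with a summit between 5 kb upstream of its 5′ end and its 3′ end. LIN-32 is an Atonal-family basic helix-loop-helix factor, a family that acts in nervous system development and binds hexamers of the form CANNTG (E-boxes).

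Both samples were biological replicates of 1 group, and no second condition was compared. The animals were whole mixed-stage embryos of both sexes, at a labelled age of 3 h and synchronized by egg bleaching, from 1 stable line, strain OP740. The line carries the transgene wgIs740, whose lin-32::TY1::EGFP::3xFLAG fusion is joined to an unc-119(+) rescue marker, in the mutant background unc-119 (tm4063), so both samples share all of these alleles. The GFP-FLAG tag sits at the C-terminus of LIN-32, chromatin was sonicated, and the protein was pulled down with an antibody to GFP. Bound cells cannot be told from unbound ones in whole embryos, and the values are those of the tagged transgene. The 4 lists were the pooled list called on both replicates together (26004 nuclear peaks), a list for replicate 1 (30000), a list for replicate 2 (22601), and a short list, here the IDR set. That set was kept by the irreproducible discovery rate procedure, which compares the ranks of peaks between replicates. Membership alone did not show like rank in both replicates, since the set was the top of the pooled list by signal. The 3 longer lists also contain background entries, per the deposited notes, so a peak of low rank in them need not be a binding site. Read depth is unknown from these lists, and intervals for shares reflect only the number of peaks or genes counted.

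As background, epithelial cells of the embryo are held together by apical junctions with a cadherin-catenin complex and, just basal to it, a complex of DLG-1 and AJM-1. In the first, the E-cadherin HMR-1 binds the β-catenin HMP-2 and the p120-catenin JAC-1, and HMP-2 binds the α-catenin HMP-1, which links the complex to actin during ventral enclosure and elongation of the body. In the second, the Discs-large protein DLG-1 binds the coiled-coil protein AJM-1, and the Scribble-family protein LET-413 at the basolateral membrane is needed for the junction to become a continuous belt.

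IDR summits lay in the windows of 3 of the 7 genes, hmp-2, hmr-1 and ajm-1, and 7.73% of all protein-coding genes had one. Since such peaks were part of why these genes were named, the count describes that choice. The IDR set was exactly the top of the pooled list by signal with no rank missing, so membership was a limit on pooled signal, the authors' peak height on an unstated scale. At these genes the last peak inside it was an hmr-1 peak at pooled rank 991 (signal 94.7). The first peaks outside were 3 at hmr-1, at ranks 1153, 1156 and 1203 (signals 87.3, 87.2 and 85.8), and 1 at hmp-1, at rank 1268 (83.8). Going down to pooled rank 2000, which is a description of the same list, 6 of the 7 had a summit, all but let-413, beside 13.8% of all protein-coding genes. Long genes meet such a limit more often. In windows of at least 30 kb, the class of hmr-1, jac-1 and ajm-1, 40.5% of 116 genes had a pooled peak of rank 1 to 2000 and 25% had an IDR peak. In windows of 8 to 12 kb, the class of the other 4, these shares were 17.6% and 9.84% of 4534 genes. Over all ranks every one of the 7 genes had a pooled summit, as did 79.3% of protein-coding genes.

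**Figure D1:**
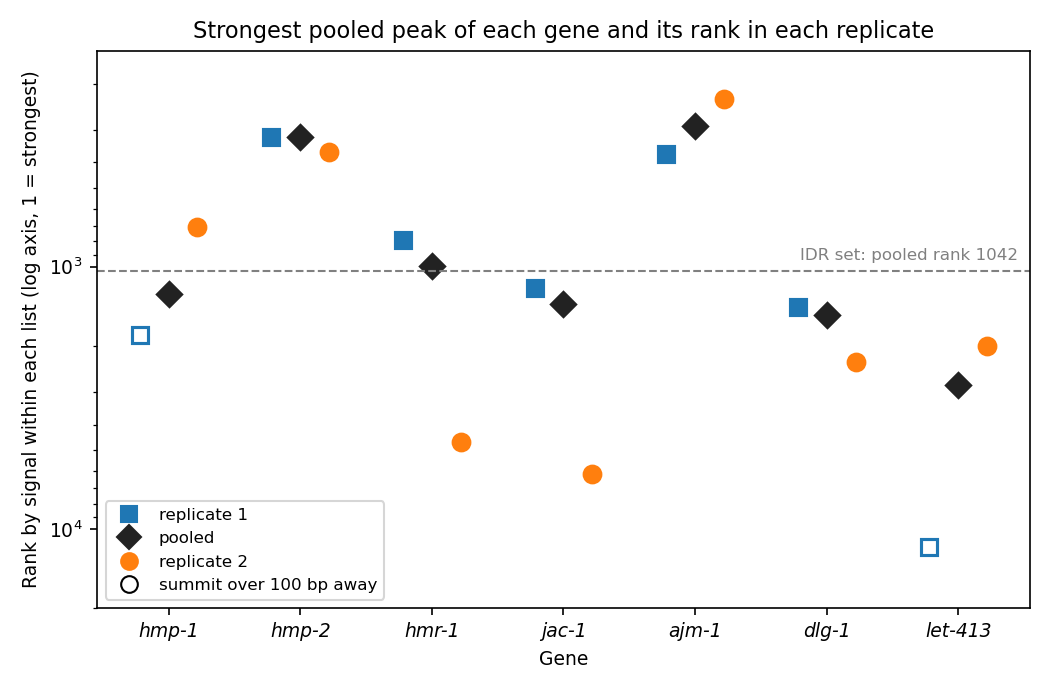
Rank of the strongest pooled peak of each junction gene in the pooled list and of the replicate peaks matched to it, on a log axis where 1 is the strongest peak of a list; open symbols are summits over 100 bp from the pooled one, and the dashed line is the end of the IDR set. The hmp-2 peak and the ajm-1 peak rank between 230 and 373 in all lists, while those of hmr-1, jac-1 and let-413 differ between the replicates by more than 3000 ranks.

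The strongest peak among the 7 genes lay at ajm-1 (WBGene00000100, chromosome X, 9082946 to 9113619, plus strand), and both IDR peaks of this gene lay beside tRNA genes. The sequences of these peaks are shown because the summit and the tRNA gene are so close. They are read from the RefSeq genome WBcel235 on the plus strand, 5′ to 3′, from the tRNA gene to 50 bases past the summit or the reverse, with the tRNA gene in capitals.
ajm-1 upstream peak, chrX:9078254-9078408: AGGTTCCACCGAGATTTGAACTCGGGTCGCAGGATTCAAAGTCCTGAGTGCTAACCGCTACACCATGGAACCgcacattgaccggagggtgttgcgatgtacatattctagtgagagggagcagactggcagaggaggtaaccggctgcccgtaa
ajm-1 intron peak, chrX:9091475-9091628: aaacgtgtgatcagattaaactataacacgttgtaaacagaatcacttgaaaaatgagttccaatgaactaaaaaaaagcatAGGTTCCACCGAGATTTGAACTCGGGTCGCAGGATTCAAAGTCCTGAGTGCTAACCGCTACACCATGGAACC
Both capital stretches are the same 72 bases, a tRNA-Gln gene read on its opposite strand, and 15 identical copies of it stand among 612 nuclear tRNA genes. A read that falls wholly inside such a copy cannot be assigned to 1 of them. The E-box of the intron peak, CAAGTG on the other strand, is in its lower-case flank.

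The upstream peak of ajm-1 ranked 291 in the pooled list, with a signal of 172, and ranked 373 in replicate 1 (signal 77.3) and 230 in replicate 2 (98.1). The pooled and replicate 2 summits fell on the same base and that of replicate 1 was 2 bp away, so it was placed alike in both. From the 5′ end of ajm-1 it was 4588 bp upstream, but the nearest protein-coding 5′ end was that of F47E1.1, 1172 bp away, and the tRNA-Gln gene ended 33 bp from the summit. The intron peak ranked 695 in the pooled list (signal 112), 507 in replicate 1 (66.4) and 1546 in replicate 2 (42.1). At the size of the IDR set it was therefore inside the strongest peaks of replicate 1 and outside those of replicate 2. Its summit lay 760 bp upstream of an internal 5′ end of ajm-1, that of transcript C25A11.4k.1, within an annotated non-coding RNA, H08J11.5. It was 32 bp downstream of the 3′ end of a tRNA-Gln gene, so on the other side from the upstream peak. That intron holds 5 tRNA-Gln genes, 3 of them within 500 bp of the summit, at 32, 144 and 357 bp, and the others at 624 and 827 bp.

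Beside tRNA genes the IDR set as a whole was rich, with 176 of its summits (16.9%, 95% exact binomial interval 14.7 to 19.3%) within 500 bp of one, against 1.63% of all pooled peaks. Of the 4 IDR peaks at junction genes, the 2 at ajm-1 were of this kind, and those of hmp-2 and hmr-1 lay 574568 and 33800 bp from the nearest tRNA gene. Over all pooled peaks at the 7 genes 3 of 81 lay this close (3.7%, interval 0.77 to 10.4%), the third being a dlg-1 peak at rank 7095, 446 bp from a tRNA-Met gene just past the 3′ end of dlg-1. By rank it was 2 of 13 at ranks 1 to 2000 (15.4%, interval 1.92 to 45.4%, all peaks 10.9%) and 0 of 13 from there to rank 5000 (all peaks 1.37%). The share was 7.69% among pooled ranks 1 to 5000 together, and over all ranks 6.67% without hmr-1, which had none of the 3. The B box core GTTCNANNC, part of the internal promoter of tRNA genes for RNA polymerase III, was searched on both strands. It was present in 587 of the 612 tRNA genes (95.9%), the 6 beside ajm-1 included. Within 50 bp of the summit it was not found whole at either of the ajm-1 IDR peaks, and was found in 12.2% of all IDR peaks and in 44.9% of those within 500 bp of a tRNA gene. The nearest copy to the ajm-1 intron summit lay 44 to 52 bp away, just across the limit, and that to the upstream summit lay 84 to 92 bp away. How far the tRNA genes bear on the ajm-1 peaks was not tested.

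The remaining 13 pooled peaks of ajm-1 were weaker. The nearest in signal stood at rank 2539, in an intron 954 bp upstream of the 5′ end of transcript C25A11.4h.1 (signal 65.5, ranks 4967 in replicate 1 and 1440 in replicate 2). The next, at rank 2951 (signal 62.6), had a replicate 1 match at rank 4137, while the closest replicate 2 summit was 210 bp away, past the 100 bp taken as a match. Ensembl lists 14 distinct 5′ ends for ajm-1, and 8 of the 15 pooled peaks lay within 1 kb of one of them, a count with no share over other genes beside it. The pair within 1 kb of the outermost 5′ ends ranked only 9218 and 12010, so the strong signal at ajm-1 was not at its first promoters.

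At dlg-1 (WBGene00001006, chromosome X, 5479700 to 5484941, plus strand) the strongest peak was the most exactly placed of the 7 genes. Its summit is shown with 50 bases on either side, plus strand of WBcel235, with the E-box in capitals, beside the single dlg-1 peak that held an Atonal-type E-box, which means CAGATG or CAGCTG.
dlg-1 upstream peak, chrX:5475225-5475325: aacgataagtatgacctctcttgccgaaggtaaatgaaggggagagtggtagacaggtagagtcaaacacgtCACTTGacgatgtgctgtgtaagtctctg
dlg-1 coding exon peak, chrX:5482614-5482714: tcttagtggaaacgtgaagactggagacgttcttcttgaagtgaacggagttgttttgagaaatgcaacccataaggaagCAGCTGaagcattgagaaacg
The upstream summit fell on the same base in the pooled list and in both replicates, at a distance of 4425 bp upstream. It ranked 1534 in the pooled list (signal 77.3), 1423 in replicate 1 (44.1) and 2300 in replicate 2 (37.3), so it missed the size of the IDR set in every list. It lay within 2 overlapping annotated non-coding RNAs, C25F6.10 and C25F6.12, and no protein-coding 5′ end was closer than that of dlg-1. The coding exon peak was weak, at rank 14002 (signal 39.4), matched at rank 9824 in replicate 2 (24.7) and unmatched in replicate 1. Near the dlg-1 5′ end itself stood peaks at ranks 3895 and 4819, in an intron 432 and 647 bp downstream. At 100 bp the first was matched in replicate 2 alone (rank 6785) and the second in replicate 1 alone (rank 4429). The intervals of the pair overlapped, and both of these replicate peaks lay within 250 bp of each pooled summit. Both replicates thus had a peak here, with summits too far apart for a match. Replicate 2 also had a stronger entry, at rank 4489 (signal 30.8), 205 bp downstream of the 5′ end. That entry had no pooled summit within 100 bp.

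For let-413 (WBGene00002632, chromosome V, 7973078 to 7977776, minus strand) the strongest pooled peak stood only at rank 2815 (signal 63.5), 2165 bp before its 5′ end and nearer, at 1604 bp, to that of F26D11.1. The replicates differed most here. Replicate 2 had it at rank 1998 (signal 38.8), whereas the nearest replicate 1 summit was 133 bp away, at rank 11688 (signal 24.2). The other 5 pooled peaks ranked from 8060 to 19078, and 1 of them was matched in both replicates, at ranks 20440 and 20210.

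Among the catenins outside the IDR set, hmp-1 (WBGene00001978, chromosome V, 11845871 to 11852166, plus strand) and jac-1 (WBGene00002175, chromosome IV, 15997835 to 16026847, minus strand) had peaks just below its limit. Their summits are shown with 50 bases on either side, plus strand of WBcel235 in every case, with E-boxes in capitals where there were any.
hmp-1 promoter peak, chrV:11844827-11844927: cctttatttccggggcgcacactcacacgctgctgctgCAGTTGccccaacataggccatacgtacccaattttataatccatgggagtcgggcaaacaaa
jac-1 stronger exon peak, chrIV:16002642-16002742: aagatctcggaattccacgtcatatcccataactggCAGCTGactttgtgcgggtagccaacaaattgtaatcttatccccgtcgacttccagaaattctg
jac-1 weaker exon peak, chrIV:15999226-15999326: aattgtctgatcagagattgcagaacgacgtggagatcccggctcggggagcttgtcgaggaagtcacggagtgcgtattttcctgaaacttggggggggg
The hmp-1 E-box reads CAACTG on the other strand, that of the stronger jac-1 peak is the Atonal-type CAGCTG, and the weaker jac-1 peak held none.

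The hmp-1 peak ranked 1268 in the pooled list (signal 83.8), and its summit lay 994 bp before the gene, within the annotated non-coding RNA R13H4.11. In replicate 2 it was a strong peak, at rank 707 (signal 58.6) and 60 bp from the pooled summit. In replicate 1 the nearest summit ranked 1820 (signal 41.0) and was 144 bp from the pooled one, over the 100 bp limit for a match, and 84 bp from that of replicate 2. The same replicate 1 peak was the match of a second pooled summit at rank 4120, 789 bp upstream, which had no replicate 2 match. The pooled list thus held a pair of summits where each replicate had 1. The other hmp-1 entries were at rank 5613, 12 bp from the 5′ end of the neighbour nphp-4, at rank 8745 in a coding exon of nphp-4, and at rank 19658 in a UTR exon of hmp-1, where CAGATG and CACGTG were found.

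Both strong jac-1 peaks lay in coding exons far into the gene, 24155 and 27571 bp downstream of the first 5′ end and 3665 and 7081 bp downstream of the closest internal one. The first ranked 1393 (signal 80.3), with ranks of 1204 in replicate 1 (46.6) and 6168 in replicate 2 (28.3). The second ranked 1683 (signal 74.9), with ranks of 1192 (46.8) and 2986 (34.6). Both were stronger by rank in replicate 1. No pooled peak lay within 1 kb of any of the 5 annotated 5′ ends of jac-1. The replicate lists had 1 entry each in that range, at rank 5860 in replicate 1 (signal 29.7), 916 bp from the first 5′ end, and at rank 12125 in replicate 2, 615 bp from an internal one, neither with a pooled summit within 100 bp.

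The β-catenin gene hmp-2 (WBGene00001979, chromosome I, 14738882 to 14742671, plus strand) had 1 strong peak, and its values were the most even between replicates. It ranked 319 in the pooled list (signal 165, −log10 q-value 2.95), 321 in replicate 1 (82.7) and 366 in replicate 2 (78.8), with the 3 summits within 6 bp. The summit lay 1385 bp upstream of hmp-2 and 205 bp upstream of K05C4.7, whose 5′ end lies between the peak and hmp-2. From position the peak could be given to either gene. It held the E-box CAAGTG and neither of the Atonal-type hexamers. The other 5 pooled peaks of hmp-2 ranked from 5941 to 21522, and each was matched in 1 replicate only.

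The cadherin gene hmr-1 (WBGene00001980, chromosome I, 11075755 to 11134667, minus strand) differed from the others in having many peaks of middling rank. Its 36 pooled peaks were the most in the window of any protein-coding gene, in the fourth longest window (63.9 kb), and there were 38 in replicate 1 and 37 in replicate 2. Per length this was 0.563 peaks per kb, with 1807 genes (9.05%) denser, and 10 of the 116 genes with windows of at least 30 kb were. The IDR peak, at rank 991, ranked 792 in replicate 1 (signal 55.6) and 4678 in replicate 2 (30.4), so a set of that size from replicate 2 alone would have missed it. It lay in an intron, 9840 bp downstream of the distal 5′ end and 1087 bp from that of Y52B11B.1, a gene nested in hmr-1, and CATATG occurred in its window 2 times.

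A long transcript of hmr-1 starts at the distal 5′ end and is known for its neuronal role, while shorter transcripts that encode the epithelial cadherin start about 40.1 kb further in. Peaks of rank 1 to 2000 stood on both sides of that internal start. An intron peak at rank 1153 (1086 in replicate 1, 2701 in replicate 2) lay 2177 bp downstream of the distal start and held CAGATG, as did one at rank 1342 (1417 and 4936), 2969 bp upstream of it. Around the internal start a peak at rank 1156 (1466 and 2170) lay 1378 bp upstream in an intron, and one at rank 1203 (1135 and 5113) lay 287 bp downstream in a coding exon with the E-box CACGTG. The sixth, at rank 1532 (1461 and 2242), lay in a coding exon near the 3′ end. All 6 were matched in both replicates and all 6 had a better rank in replicate 1. This was not particular to hmr-1. The strong jac-1 peaks, the strongest hmp-2 and dlg-1 peaks and the ajm-1 intron peak also ranked better there. The strongest hmp-1 peak and the ajm-1 upstream peak went the other way.

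Counted over all ranks, pooled peaks per kb were highest from the internal start of hmr-1 to its 3′ end, a difference that was not tested. Transcripts W02B9.1d.1 and W02B9.1e.1 also start in that stretch. From the internal start to the 3′ end there were 15 in 18.8 kb (0.799 per kb), 10 of them matched in both replicates. Between the starts there were 19 in 40.1 kb (0.473 per kb), 7 of them matched, and in the 5 kb upstream of the distal start 2 (0.4 per kb), 1 of them matched. In the same order the 3 stretches held 2, 3 and 1 peaks of rank 1 to 2000, and 7, 5 and 1 of rank 1 to 5000. The GC content of the 3 stretches was 37.9%, 37.2% and 35.4%. Of the 36 peaks 25 lay in introns, 8 in coding exons, 1 in a UTR exon and 2 outside, and 8 were within 1 kb of an annotated 5′ end of hmr-1. These counts too have no share over all pooled peaks beside them.

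**Figure D2:**
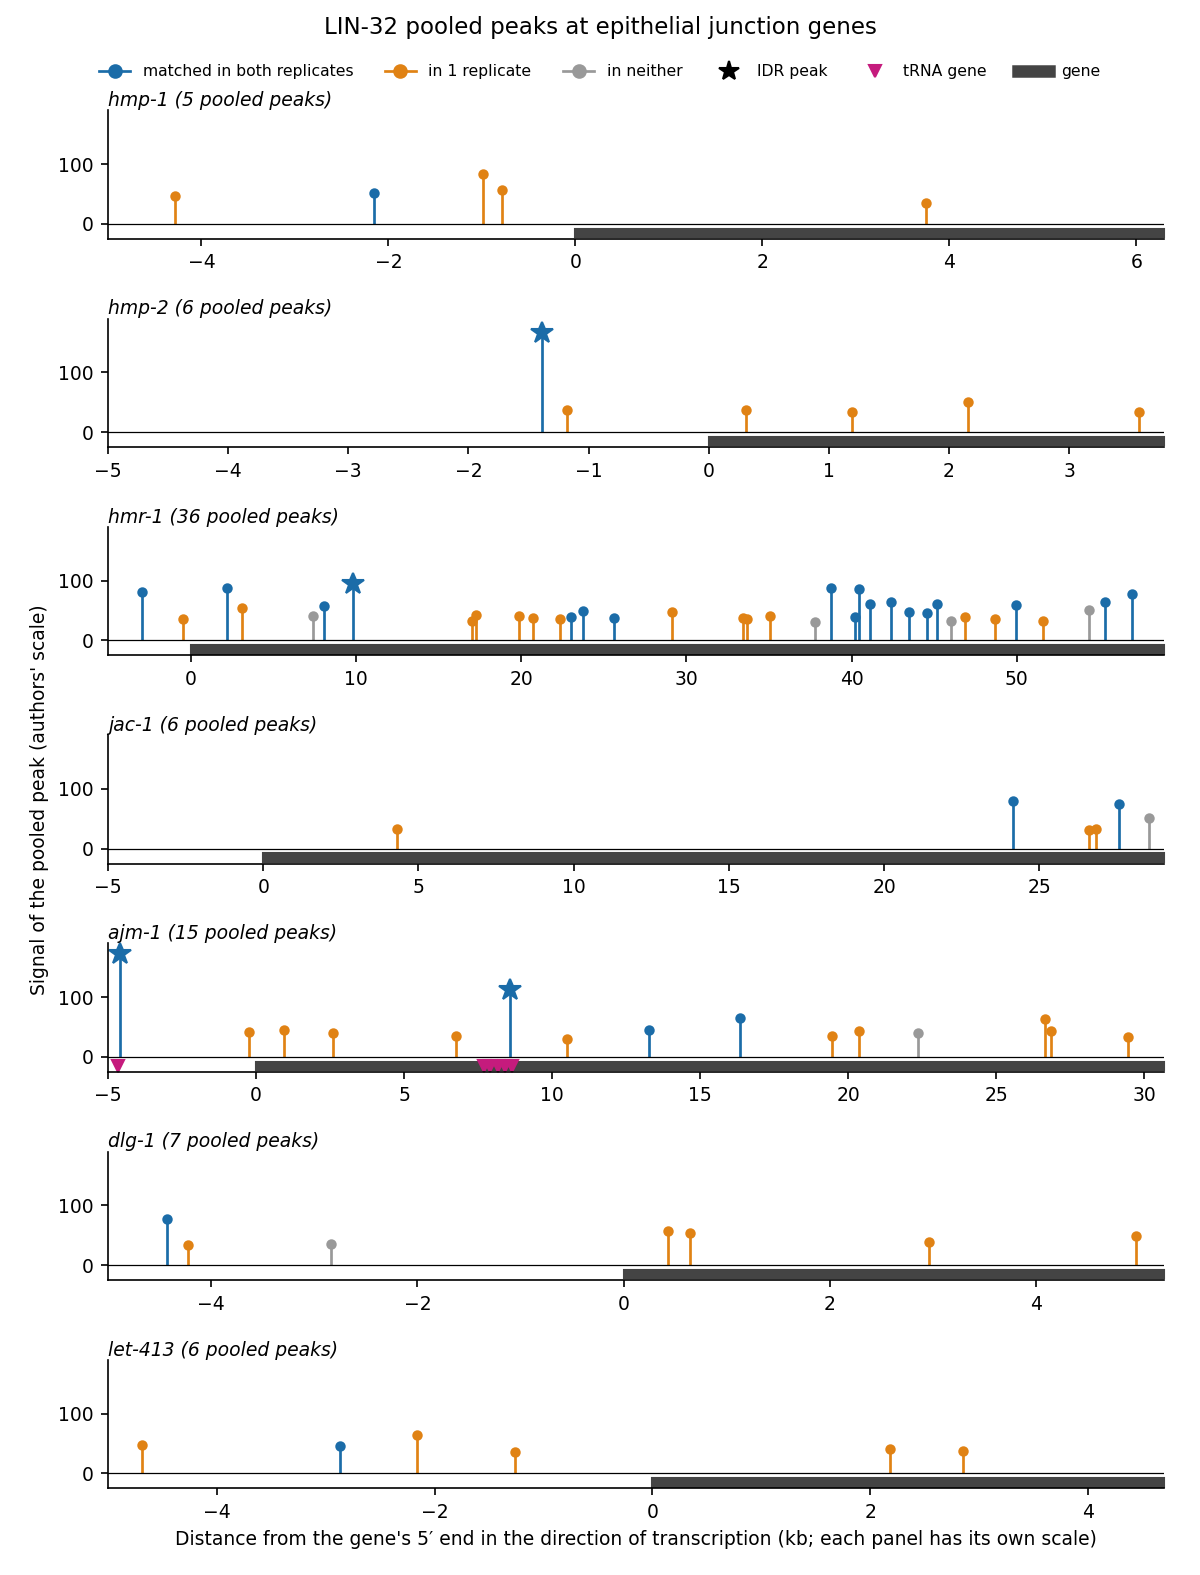
Pooled peaks in the window of each junction gene, by distance from the 5′ end in kb along the gene (each panel with its own scale) and by the authors' signal on the vertical axis. Colours show how many replicates matched, stars mark IDR peaks and triangles tRNA genes. The strongest peaks of ajm-1, dlg-1, hmp-2, hmp-1 and let-413 lie upstream, and those of jac-1 and hmr-1 lie inside the gene.

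Over the 7 genes there were 81 pooled peaks in 173.6 kb of window, 0.467 per kb, against 0.259 per kb over the nuclear genome, and without hmr-1 there were 45 in 109.7 kb, 0.41 per kb. Replicate 1 had 82 peaks there and replicate 2 had 75. By gene the pooled density was 0.683 per kb at dlg-1 (7 peaks), 0.683 at hmp-2 (6), 0.619 at let-413 (6), 0.563 at hmr-1, 0.443 at hmp-1 (5), 0.42 at ajm-1 (15) and 0.176 at jac-1 (6). The median over all protein-coding genes was 0.229, so jac-1 alone was below it, with 56.8% of genes denser. For dlg-1 4.05% of genes were denser and for ajm-1 21.4%, and the remaining 4 genes fell between these. By place 42 of the 81 summits lay in introns, 21 in coding exons, 4 in UTR exons and 14 outside coding transcripts, and for 55 the nearest protein-coding 5′ end was that of the junction gene itself. Of the 42 in introns, hmr-1 held 25. No shares over all pooled peaks stand beside these counts, so they describe the 81 peaks and are not a trait of junction genes.

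**Figure D3:**
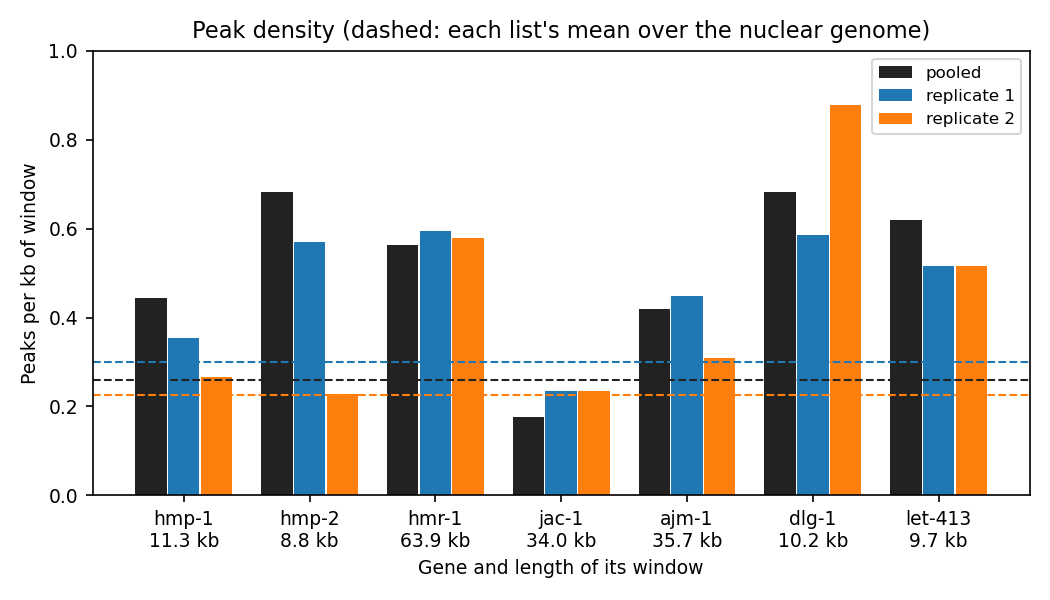
Peaks per kb of window for each junction gene in the pooled list and in each replicate, with dashed lines at each list's mean over the nuclear genome (0.259, 0.299 and 0.225 per kb). The pooled bar of jac-1 is below its line, those of the other 6 genes are above it, and hmp-2 and dlg-1 differ most between the replicates.

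Of the 81 pooled peaks 28 (34.6%, interval 24.3 to 46.0%) had a summit of each replicate within 100 bp, beside 28.8% of all pooled peaks. A further 27 were matched in replicate 1 alone, 19 in replicate 2 alone and 7 in neither. Support fell with rank both here and in the whole list. It was 12 of 13 at ranks 1 to 2000 (92.3%, all peaks 90.7%), 7 of 13 from there to rank 5000 (53.8%, all peaks 68.8%) and 9 of 55 below that (16.4%, all peaks 17.2%). The exception among the strongest 13 was the hmp-1 peak. Between ranks 2000 and 5000 the genes were split, a difference that was not tested. At hmr-1 6 of 7 were matched in both replicates (85.7%, interval 42.1 to 99.6%). At the other 6 genes it was 1 of 6 (16.7%, interval 0.421 to 64.1%). From ranks 1 to 2000 to those over 5000, hmr-1 went from 6 of 6 to 6 of 23. The other 6 genes went from 6 of 7 to 3 of 32. Most of the supported peaks were in 1 gene, as hmr-1 had 18 of the 28 (50% of its own peaks), against 10 of 45 (22.2%) at the other 6 genes. Over the 28 matched peaks the signals of the replicates had a Spearman correlation of 0.57, and over all 7493 matched pooled peaks one of 0.48. These points share 1 control alignment, and the pooled signal that selects them is made from both replicates.

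**Figure D4:**
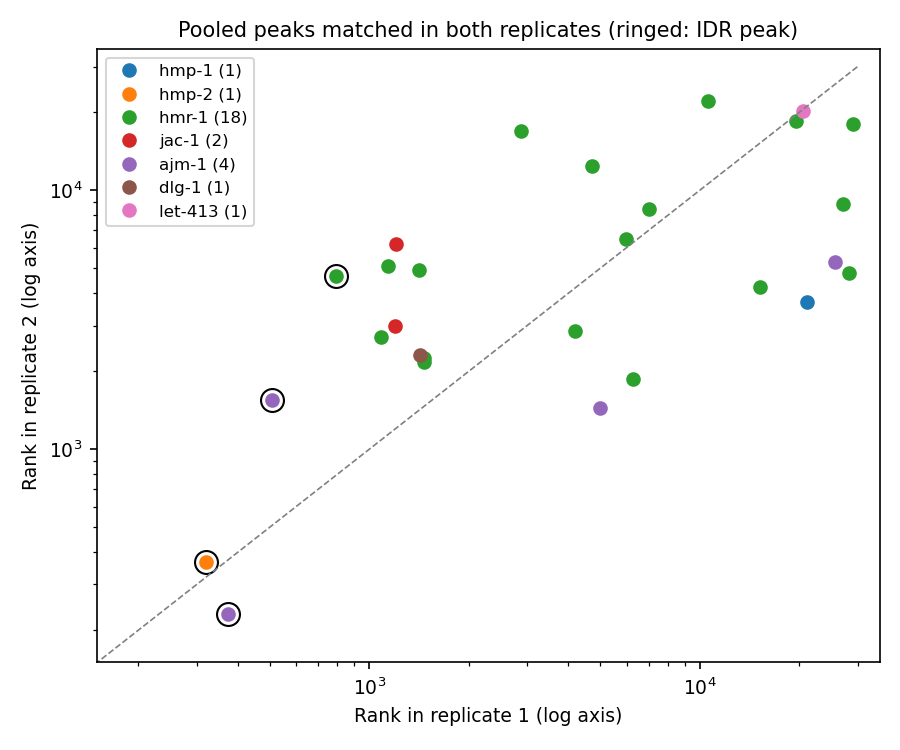
Rank in replicate 1 against rank in replicate 2, both on log axes, for the pooled peaks at junction genes matched in both replicates (28 peaks, IDR peaks ringed, dashed line at equal rank). The hmp-2 peak and the ajm-1 upstream peak lie near the diagonal, while the 6 strongest hmr-1 peaks and both strong jac-1 peaks rank better in replicate 1.

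Taking each replicate by itself at the size of the IDR set, 3 of the 7 genes had a peak among that many of the strongest in replicate 1 (all protein-coding genes 7.73%) and 3 among those of replicate 2 (7.82%). The genes were hmp-2, hmr-1 and ajm-1 in replicate 1 and hmp-1, hmp-2 and ajm-1 in replicate 2. Only hmp-2 and ajm-1 were common to both, so hmr-1 rested on replicate 1 and hmp-1 was present through replicate 2.

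Both strands within 50 bp of each summit were searched for E-boxes. An Atonal-type hexamer was present at 6 of the 81 pooled peaks (7.41%, interval 2.77 to 15.4%), beside 10% of all pooled peaks. At ranks 1 to 2000 it was 3 of 13 (23.1%), beside 24.5%, and these 3 were the hmr-1 peaks at ranks 1153 and 1342 and the jac-1 peak at rank 1393. None of the 4 IDR peaks at junction genes had one, while 31.3% of all IDR peaks did. At 4 peaks a difference from that share was not detectable. Any CANNTG was found at 33 of the 81 (40.7%), beside 38.7% of all pooled peaks, and at 9 of the strongest 13 (69.2%), beside 52.7%. Mean GC content in the searched windows was 44.1% ± 8.2 (SD over 81 peaks) and 42.4% ± 8.59 over all pooled peaks.

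The other genes of junctions and morphogenesis were counted from 7 lists of 98 genes found in the annotation. An IDR summit lay in the window of 26 (26.5%, interval 18.1 to 36.4%), through 34 distinct peaks, 3 of them within 500 bp of a tRNA gene. Window length enters here too. Among windows under 8 kb it was 1 of 19 (5.26%, all genes 5.8%), at 8 to 12 kb 8 of 26 (30.8%, all genes 9.84%), at 12 to 30 kb 14 of 44 (31.8%, all genes 16%) and from 30 kb 3 of 9 (33.3%, all genes 25%). For 19 of the 26 the strongest IDR peak was nearest to the gene's own 5′ end, and 12 (46.2%) had an Atonal-type E-box there, beside 31.3% of all IDR peaks.

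The median window per list ran from 9.8 to 17.2 kb. An IDR peak was found for 9.84% of all genes with windows of 8 to 12 kb and 16% at 12 to 30 kb. Other catenins and cadherins had IDR peaks in 6 of 14 genes. They were led by fmi-1, the Flamingo-type cadherin of axon development, whose peak had a signal of 317 (rank 68). The peak of cdh-12 (203) lay 288 bp from a tRNA gene. The β-catenins of Wnt signalling, wrm-1 (175) and sys-1 (143), followed, and each of their peaks held CAGATG, although the sys-1 peak was nearer to the 5′ end of the histone gene his-67. In ventral enclosure signalling, by which neuroblasts and epidermal cells close the belly of the embryo, 6 of 11 genes had one. The strongest were at the Eph receptor gene vab-1 (396, rank 32), the ephrin gene efn-4 (150), the LAR-type phosphatase gene ptp-3 (141) and the semaphorin gene mab-20 (118). The vab-1 peak lay 13486 bp downstream of its 5′ end and nearer to that of ipla-1, and the efn-4 peak was nearer to that of F56A11.5.

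Apical polarity genes had an IDR peak in 4 of 12, namely pac-1 (171), the Crumbs gene crb-1 (139), par-6 (99.5) and cdc-42 (96.9). The last pair of peaks was nearer to the 5′ ends of T26E3.4 and R07G3.7. Claudin-like and scaffold genes had one in 3 of 14, the L1CAM gene sax-7 (173), the ZO-1 gene zoo-1 (105) and the afadin gene afd-1 (98.5). Of the actomyosin genes 6 of 26 did, led by let-502 (142), git-1 (128), the α-spectrin gene spc-1 (127) and wve-1 of the WAVE complex (123), with the git-1 peak nearer to the 5′ end of mboa-7 and the wve-1 peak nearer to that of R06C1.4. Among hemidesmosome genes it was dgn-1 (158) alone of 9, and the list's ifa-2 was not matched in the annotation, nor was efn-1 of the enclosure list. Epidermal fate factors had none among 12 (exact interval up to 26.5%), and 1 of the 12 had a pooled peak of rank 1 to 2000. Their median window was 10.6 kb. Among all genes with windows of 8 to 12 kb these shares were 9.84% and 17.6%, so neither count shows a lack at these factors.

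**Figure D5:**
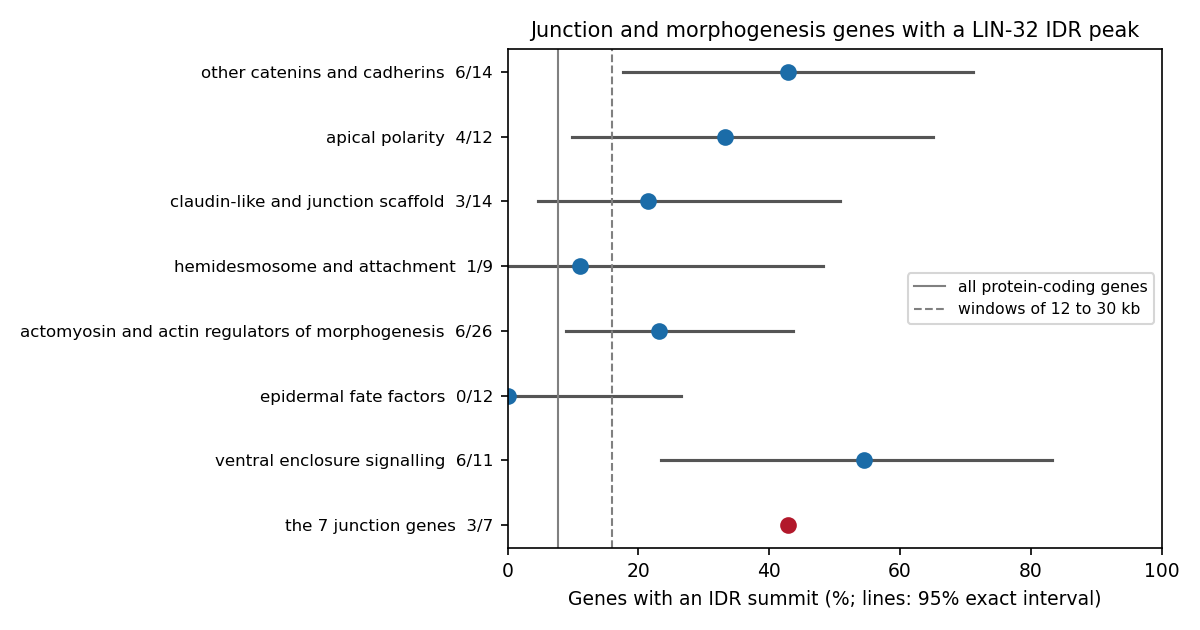
Share of genes with an IDR summit in their window for 7 lists of junction and morphogenesis genes (blue, lines are 95% exact binomial intervals over genes) and for the 7 junction genes (red, no interval because they were chosen by such peaks). Vertical lines are all protein-coding genes (7.73%) and those with windows of 12 to 30 kb (16%); the epidermal fate factors are at 0 and ventral enclosure signalling is the highest at 54.5%.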

How the data were processed

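LIN-32 was assayed by chromatin immunoprecipitation and sequencing in 2 biological replicates of 1 group, per the labels. With 2 replicates and no second condition, no test between groups was made. Per the deposited notes on file derivation, each replicate had its own peak call and both together had 1 more, all with 1 control alignment in common. The IDR set of 1042 peaks was made from these. The build is ce11 per the labels, which is WBcel235. For the aligner, peak caller and IDR threshold, the name or value was not given in the sources used here. Each peak's signal value, deposited by the authors on an unstated scale, was used only to rank peaks within a list and to describe them. The deposited −log10 q-value is printed for 1 peak. Lists differ in length, so a rank in one list is not a level in another, and the 3 longer lists also contain background entries, per the deposited notes.

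Summits were placed on Ensembl release 115 gene models, on nuclear chromosomes only, which left out 17 mitochondrial peaks of replicate 2. Summits within 100 bp counted as matched. For each gene the window ran from 5 kb upstream of the 5′ end to the 3′ end, and windows of neighbouring genes can share a peak. Sequences come from the RefSeq genome. Intervals, where given for shares, are exact (Clopper-Pearson) 95% intervals. The 7 genes, the 7 other lists and all counts were chosen with earlier results of these data known, and no test was run on them. The genes named are the 7, up to 4 genes per other list with the strongest IDR peak, and the nearest neighbours of the strong peaks. The strongest peak of let-413, other weaker peaks and their neighbours are named beyond that rule and were chosen after their values were seen. Summit matching and the search for Atonal-type hexamers were run on simulated cases. Matching found at least the planted matches, and the search found the planted hexamers. A check of gene windows could not fail by its design, and the other steps were not simulated. Software comprised Python 3.11.15, matplotlib 3.10.9, pandas 2.3.3, scipy 1.17.1 and numpy 2.4.6.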

Additional observations from a re-analysis of the deposited data

How the results depend on the processing

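Of 48 alternatives run, 37 kept a count within 1.5 times the reported one or a share inside its reported exact interval, and 11 did not. Counting a peak only for the gene with the nearest protein-coding 5′ end left 1 of the 3 junction genes with an IDR peak, ajm-1 through its intron peak. A limit at pooled rank 1000 gave 3 genes in place of 6, and a limit of 2000 in the replicate lists gave 6 in replicate 1 and 5 in replicate 2, in place of 3 each. The 26 other genes became 14 with windows that end 500 bp downstream of the 5′ end and 13 with the stronger 50% of IDR peaks. The 34.6% of peaks matched in both replicates was 22.2% at 50 bp, 56.8% at 250 bp, 73.1% among ranks 1 to 5000, and 22.2% without hmr-1, an alternative chosen after seeing the data. For the 3.7% near a tRNA gene, whose interval is wide, these were 7.69% among ranks 1 to 5000 and 6.67% without hmr-1. The 7.41% with an Atonal-type E-box became 40.7% with any CANNTG. For 1 replicate left out, the IDR set was replaced by as many of the strongest peaks of the remaining one. The junction genes then numbered 3 either way, and the other genes ranged from 26 to 27. Peaks at junction genes, counted over the whole list of the remaining replicate, ranged from 75 to 82. No paired analysis was possible because there is only 1 group. Read depth is unknown, so it cannot be said which weak peaks depth limits, and 4 IDR peaks at 7 genes leave every share over them imprecise.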
